A study of Sus scrofa with 12 samples.

Results

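The 10 genes described here are protein genes of the pig mitochondrial genome that the gene table lists as COX1, COX2, COX3, ATP6, CYTB, ND1, ND2, ND3, ND4 and ND5. They were found by these exact symbols among 29884 genes, and all 10 were among the 12260 genes tested. Expression was measured in left ovaries from sows of small litter size (SLS, 3 ovaries named ZD2, ZD3 and ZD12) and of large litter size (LLS, 3 ovaries named ZD5, ZD7 and ZD8). All sows came from a single commercial piggery and were sampled 4 days after delivery 4, and no treatment, genotype or breed is given for either group. Each library came from a single ovary of a single sow, and the comparison of LLS with SLS asks which transcripts differ with litter size.

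The mitochondrial genome is a small circle of DNA that is present in many copies in each cell. Its genes have no introns. Both strands are transcribed into long precursors, and transfer RNAs that lie between the protein genes are cut out to release the messenger RNAs. The proteins are subunits of the respiratory chain and of ATP synthase, where they work together with subunits encoded in the nucleus. In the ovary, mitochondria also hold the first step of steroid synthesis, so that luteal cells are rich in them. The name COX2 here means a subunit of cytochrome c oxidase and not a prostaglandin synthase.

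In Sscrofa11.1 the mitochondrial genome (MT) spans 16613 nt, with 13 protein genes, 22 transfer RNA genes and 2 ribosomal RNA genes. All 10 members lie on the plus strand. Along the genome they follow as ND1 (MT, 3922 to 4876), ND2 (5087 to 6128), COX1 (6511 to 8055), COX2 (8203 to 8890), ATP6 (9120 to 9800), COX3 (9800 to 10583), ND3 (10653 to 10998), ND4 (11359 to 12736), ND5 (12935 to 14755) and CYTB (15342 to 16481). Each is a single exon, and 6 of them (ND1, ND2, COX2, COX3, ND3 and ND4) lack a full stop codon in the DNA, which the addition of A residues to the messenger RNA completes. The 3 protein genes that are no members are ATP8 (8959 to 9162), ND4L (11069 to 11365) and ND6 (14739 to 15266), of which ND6 lies on the minus strand.

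Some neighbours share bases, so that a read in the shared stretch belongs to both genes. The stretches are shown 5′ to 3′ on the plus strand of the RefSeq reference, with the shared bases in capitals, because they bear on how reads were divided between the genes.
ATP8 and ATP6, chrMT:9108-9174: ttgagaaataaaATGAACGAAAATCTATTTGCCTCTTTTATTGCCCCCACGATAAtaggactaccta
ATP6 and COX3, chrMT:9788-9812: cgacaatacataAtgacccaccaaa
ND4L and ND4, chrMT:11347-11377: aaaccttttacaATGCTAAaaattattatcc
ND5 and ND6, chrMT:14727-14767: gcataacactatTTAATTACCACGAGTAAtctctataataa
ATP8 and ATP6 share 43 nt, ND5 and ND6 share 17 nt on opposite strands, ND4L and ND4 share 7 nt, and ATP6 and COX3 share 1 nt. The library kit marked the strand, but whether the counting used it is not given in the sources used here, so reads of ND5 and ND6 in the shared stretch may not have been told apart.
Other members end directly against a transfer RNA, as the ends of ND1 and COX2 show, where the capital is the last base of the gene and the only base of its stop codon.
ND1, chrMT:4859-4888: gcattcccccacaatcaTagaaatatgtct
COX2, chrMT:8873-8902: catcaatattaacaggtTcattgagaagct

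Copies of mitochondrial DNA in the nuclear chromosomes can draw reads from the mitochondrial genes or give reads to them. With at least 95% identity over at least 60 nt, 21 alignments were found. They covered 62.8% of COX2, 43.7% of COX1, 43.5% of ND1, 34.5% of ND2, 5.14% of ATP6 and 0.714% of ND5, and 0 bases of COX3, ND3, ND4 and CYTB. The levels of COX2, COX1, ND1 and ND2 are therefore less certain than those of the other members, and how reads with several matches were counted is not given in the sources used here. A copy on chromosome 9 holds parts of ND2 (360 nt), COX1 (675 nt), COX2 (270 nt) and ATP6 (35 nt), and 196 of the 204 nt of ATP8. The 196 bases of ATP8 and of its nuclear copy are shown 5′ to 3′ on the plus strand, with the 3 differing bases in capitals, because ATP8 was listed at 0 in some ovaries.
ATP8, chrMT:8959-9154: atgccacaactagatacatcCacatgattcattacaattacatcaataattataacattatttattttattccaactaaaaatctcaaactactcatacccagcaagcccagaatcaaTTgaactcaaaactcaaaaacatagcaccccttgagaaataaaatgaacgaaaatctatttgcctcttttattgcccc
Nuclear copy, chr9:4701993-4702188: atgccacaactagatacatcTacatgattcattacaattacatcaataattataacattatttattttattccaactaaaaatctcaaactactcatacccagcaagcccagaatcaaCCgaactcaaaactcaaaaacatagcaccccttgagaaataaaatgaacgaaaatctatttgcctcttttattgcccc
Counted from 1 at the start of ATP8, the differences are C21T, T119C and T120C, and 193 of 196 bases are identical.

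Levels are given as FPKM, reads divided by transcript length and by the total of the library, so that they can be compared between genes. The total per library, recovered from FPKM, was between 32272803 and 60903268 reads and was lowest in the LLS ovary ZD8. Nearly all of it lay on listed genes, with 60886802 of 60903268 reads in ZD2 and 32267603 of 32272803 in ZD8. The total thus counts reads on genes and not all reads sequenced. Between 308 and 827047 reads lay behind each value of a member, so that counting error is small against the differences between ovaries. ZD8 also stood apart in its luteal genes. The summed level of 9 luteal markers was 172 FPKM in ZD8 beside 9845 to 12775 FPKM elsewhere (9845 to 11475 FPKM in SLS, 172 to 12775 FPKM in LLS), and 8 of the 9 were lowest in ZD8. STAR, which brings cholesterol into mitochondria, was at 26.4 FPKM in ZD8 and at 2542 FPKM or more elsewhere, and CYP11A1, the mitochondrial enzyme that starts steroid synthesis, was at 21.0 FPKM in ZD8 and at 1470 FPKM or more elsewhere. PRLR was the only luteal marker at 0 in any ovary, and that was in ZD3. The summed theca markers, led by INSL3, were at 527 FPKM in ZD8 and at 42.3 to 134 FPKM elsewhere. Of 9 oocyte markers, 8 were highest in ZD8, such as GDF9 at 40.6 FPKM beside 5.41 to 11.3 FPKM elsewhere, while KIT, the most abundant and not particular to oocytes, was lowest there at 27.1 FPKM. Of 8 tested granulosa markers, 5 were higher and 3 lower in LLS, INHA, the most abundant, among the lower ones and the only 1 of the 8 without overlap (12.5%, beside 5.12% of all genes tested). Of 8 tested luteal markers, FDX1 and LHCGR were lower in each LLS than in each SLS ovary (25.0%). The granulosa sum, most of it INHA and NR5A2, was at 657 to 1144 FPKM in SLS and at 193 to 535 FPKM in LLS. The sums of stromal (COL3A1), smooth muscle (ACTA2), endothelial (VWF), macrophage (CD14), T cell (CD2), epithelial (KRT8) and erythrocyte (HBB) markers, each with its most abundant gene in brackets, overlapped between the groups. Within the epithelial list EPCAM, an adhesion protein of epithelial cells and 1 of 4 tested markers (25.0%), was at 0.312, 0.339 and 1.28 FPKM in SLS and at 27.8, 9.73 and 2.31 FPKM in LLS. Its groups did not overlap, and its log2 fold change was 2.66 (adjusted p = 0.999, limma), or 3.47 without ZD8 (adjusted p = 0.0236, limma), where 0.171% of all genes tested were called. The other 3 tested epithelial markers were lower in LLS, with and without ZD8, and the median over the 4 was -0.63, or -1.28 without ZD8. PECAM1, 1 of 6 endothelial markers (16.7%), was lower in each LLS than in each SLS ovary. Of the 6, 3 were higher and 3 lower in LLS (median -0.03), or 4 higher and 2 lower without ZD8 (median 0.09). FDX1, LHCGR, EPCAM and PECAM1 were named after their values were seen. The part of these cell types in the levels of the members was not tested. In ZD8 the endothelial sum was 130.0 FPKM beside 260.0 to 383 FPKM elsewhere, the T cell sum was 13.5 FPKM beside 2.46 to 5.21 FPKM, and all 3 erythrocyte markers were lowest. Values are therefore given per ovary, and log2 fold changes of the members also without ZD8. Fewer cells of a type and less RNA per cell cannot be told apart in these whole ovary libraries.

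The mitochondrial genes took a share of the RNA that differed by up to 10.6 times between ovaries, and both groups held high and low ovaries. In SLS the 10 members together took 2.49% (ZD2), 6.12% (ZD3) and 1.49% (ZD12) of the summed FPKM. In LLS they took 5.74% (ZD5), 2.505% (ZD7) and 0.577% (ZD8). The 2 highest ovaries, ZD3 and ZD5, came from different groups, as did ZD2 and ZD7, whose shares were close to each other. The group values were 3.37 ± 2.44% in SLS and 2.94 ± 2.61% in LLS (SD, n = 3 ovaries each), so that the difference of the means was smaller than the SD of either group. Without ZD8 the LLS mean was 4.12%, above that of SLS, without ZD5 it was 1.54%, and without ZD3 the SLS mean was 1.99%. As a share of the reads counted on genes in each library, the members took 1.15%, 2.61% and 0.704% in ZD2, ZD3 and ZD12. In ZD5, ZD7 and ZD8 they took 2.53%, 1.18% and 0.260%, where the 95% Clopper-Pearson interval of ZD8 ran from 0.258 to 0.262% (counting error only). The order of the ovaries was the same on both scales.

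**Figure D1:**
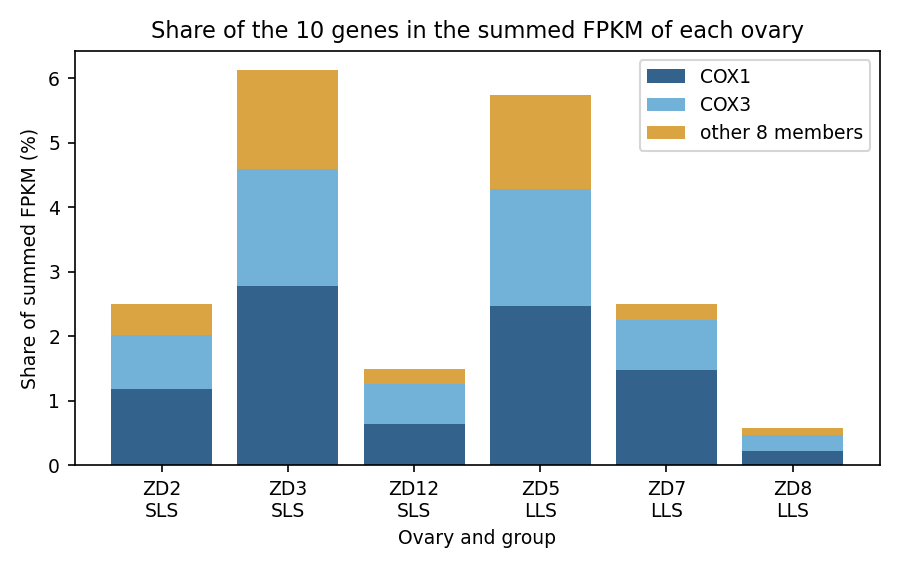
Share of the 10 mitochondrial genes in the summed FPKM of each ovary (percent, bars from 0, 1 library per bar), divided into COX1, COX3 and the other 8 members, with SLS ovaries on the left and LLS ovaries on the right. ZD3 (SLS, 6.12%) and ZD5 (LLS, 5.74%) are the highest and ZD8 (LLS, 0.577%) is the lowest, and each group holds high and low ovaries.

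Cytochrome c oxidase (complex IV) passes electrons to oxygen, and its 3 mitochondrial subunits form its catalytic core. COX1, which holds the site where oxygen is reduced, was the most abundant member, at 4612, 9996 and 2644 FPKM in SLS (ZD2, ZD3 and ZD12, in this order throughout) and at 9296, 5561 and 899 FPKM in LLS (ZD5, ZD7 and ZD8). It was the most abundant of all listed genes in ZD3 and ranked 44 in ZD8. COX3, a structural part of the core, was at 3195, 6471 and 2535 FPKM in SLS and at 6836, 2885 and 972 FPKM in LLS. COX1 was above COX3 in 5 of 6 ovaries and below it in ZD8. Together the pair made up 80.8, 75.0 and 84.6% of the members' summed FPKM in SLS and 74.5, 89.98 and 81.4% in LLS. COX2, which takes the electrons from cytochrome c, was at 494, 1610 and 191 FPKM in SLS and at 1375, 196 and 38.8 FPKM in LLS. Its highest and lowest ovary, ZD3 and ZD8, differed by 41.5 times, the widest span of the 10 members.

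ATP6, the channel subunit of ATP synthase (complex V) through which protons pass, was at 139, 495 and 135 FPKM in ZD2, ZD3 and ZD12 and at 501, 152 and 94.3 FPKM in ZD5, ZD7 and ZD8. With 5.31 times between its highest and lowest ovary it had the narrowest span of the members. CYTB, the mitochondrial subunit of complex III, was at 636, 1490 and 268 FPKM in SLS and at 1738, 277 and 142 FPKM in LLS. For both genes ZD3 and ZD5 stood clear of the other 4 ovaries, 1 from each group.

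The ND genes encode the membrane part of complex I, which takes electrons from NADH and pumps protons. ND5, the pumping subunit at the far end of the membrane arm, had the highest mean of the 5 that are members. It was at 218, 681 and 114 FPKM in SLS and at 583, 97.4 and 48.4 FPKM in LLS. ND1, which lies next to the site where ubiquinone binds, was at 183, 582 and 40.0 FPKM in SLS and at 648, 27.3 and 18.1 FPKM in LLS. Its 3 high ovaries, ZD2, ZD3 and ZD5, were at least 4.59 times above the other 3. ND4, another pumping subunit, was at 79.9, 324 and 114 FPKM in SLS and at 299, 84.8 and 50.03 FPKM in LLS. ND3, a small subunit near the joint of both arms, was at 61.7, 147 and 60.7 FPKM in SLS and at 201, 83.0 and 27.6 FPKM in LLS. ND2, also a pumping subunit, had the lowest mean of the members, although it was above ND3 in ZD3, at 43.3, 162 and 16.4 FPKM in SLS and at 175, 22.7 and 9.49 FPKM in LLS. All 5 had ZD3 and ZD5 as their highest ovaries and ZD8 as their lowest.

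ZD3 and ZD5 were the 2 highest ovaries for 10 of 10 members, and ZD8 was the lowest for 10 of 10. The order between was less even, since 6 members were higher in ZD2 than in ZD7 and 4 were lower. By the mean over the 6 ovaries, COX1 (5501 FPKM) and COX3 (3816 FPKM) were followed by CYTB (758 FPKM), COX2 (651 FPKM), ND5 (290 FPKM), ATP6 (253 FPKM), ND1 (250 FPKM), ND4 (159 FPKM), ND3 (96.9 FPKM) and ND2 (71.4 FPKM), a range of 77.0 times. COX3 was above CYTB in all 6 ovaries, as was ND4 above ND3. ND5, ATP6 and ND1 were each above the next in the order in only 3 of 6 ovaries. ND5 was above ATP6, and ND1 above ND4, in ZD2, ZD3 and ZD5, while ATP6 was above ND1 in ZD12, ZD7 and ZD8. ATP6 was above ND4 in all 6 ovaries, and ND5 was above ND4 and above ND1 in 5 of 6.

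**Figure D2:**
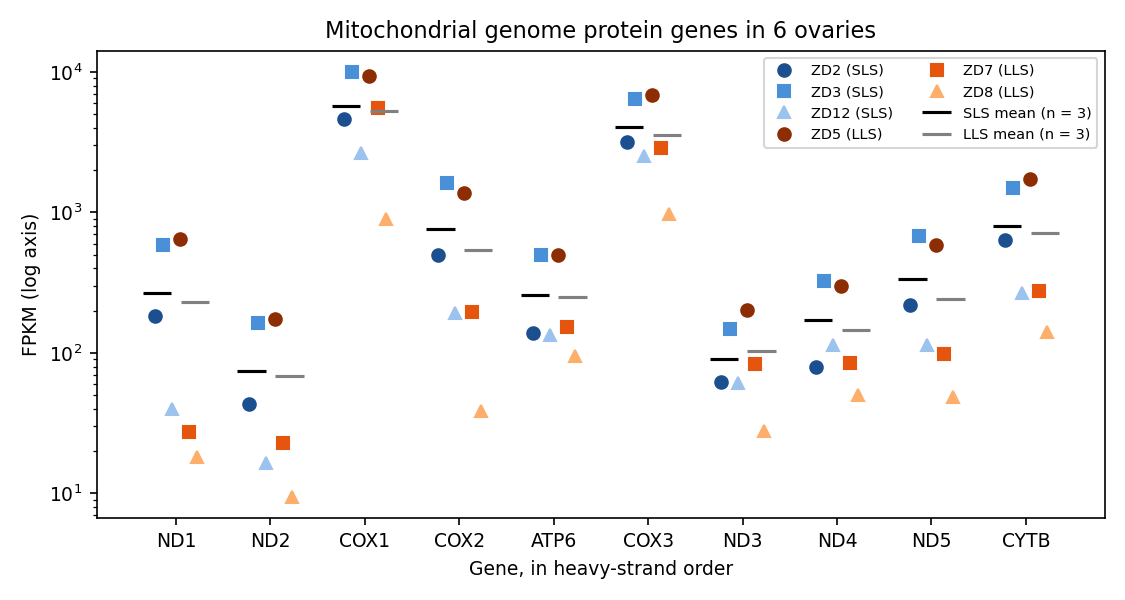
FPKM (log axis) of each of the 10 mitochondrial genes, in their order along the genome, with 1 point per ovary (blue for SLS, orange to brown for LLS) and lines at the group means (black for SLS, grey for LLS, n = 3 ovaries each). ZD3 and ZD5 are the highest 2 ovaries and ZD8 is the lowest for every gene, and the ranges of the groups overlap for every gene.

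No member passed the test between LLS and SLS. Of the 10 members, 0 were called by limma on log2(FPKM + 1), where a call needs a Benjamini-Hochberg adjusted p under 0.05 and a log2 fold change over 1 in size, beside 0% of the 12260 genes tested, and 0 had an unadjusted p under 0.05, beside 1.76% of the genes tested (216 genes). The 3 SLS and 3 LLS values overlapped for all 10 members, while 5.12% of the genes tested had groups that did not overlap. All 10 log2 fold changes of LLS against SLS were negative with all 6 ovaries, with a median of -0.50 beside 0.02 over all genes tested. The largest were those of COX2 at -1.28 (standard error 1.26, 95% interval -4.16 to 1.61) and ND1 at -1.22 (standard error 1.39, interval -4.41 to 1.97). ND3 had the smallest, -0.08 (interval -1.66 to 1.503), and its mean FPKM went the other way, with 89.8 in SLS and 104 in LLS. The log2 fold changes of COX1, COX3, ATP6, CYTB, ND2, ND4 and ND5 were -0.46, -0.48, -0.12, -0.63, -0.51, -0.40 and -0.87. The adjusted p was 0.999 for each member (limma), and exact two-sided permutation tests of the mean FPKM gave p between 0.5 and 1, where 0.1 is the smallest that 3 ovaries against 3 allow. For each of the 10 members the interval held differences of 1 on the log2 scale in both directions.

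The direction rested on single ovaries. Without ZD8, 7 of the 10 were higher in LLS and 3 lower, from -0.27 (ND1) to 0.65 (ND3). Without the SLS ovary ZD3, 5 were higher and 5 lower, and without the LLS ovary ZD5 all 10 were lower, from -2.82 (ND1) to -0.76 (ND3). The fit without ZD5 was the only one with members at an unadjusted p under 0.05, which were ND1, COX2 and ND5 (adjusted p = 0.996 each, limma). These 3 of 10 members stood beside 171 of the 12260 genes tested at an unadjusted p under 0.05 in that fit. With array weights all 10 were higher in LLS (0.29 to 0.87). No member was called in any of these fits.

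**Figure D3:**
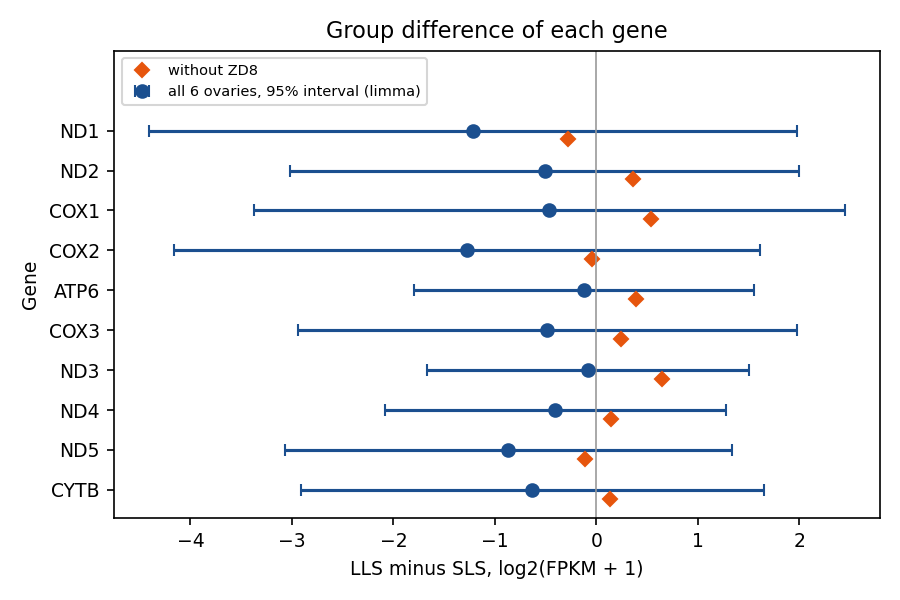
Difference between LLS and SLS of each gene on the log2(FPKM + 1) scale, with all 6 ovaries (blue points, bars for the 95% interval by limma, n = 3 ovaries per group) and without the LLS ovary ZD8 (orange diamonds). Every interval crosses 0, and without ZD8 the values lie between -0.27 (ND1) and 0.65 (ND3).

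The spread between ovaries was wide for these genes. The SD of log2(FPKM + 1) over the 6 ovaries ran from 1.005 for ND3 to 2.24 for ND1, beside a median of 0.40 over all genes tested. All 10 members were above the 95th percentile of the genes tested, with ND3 at 95.3 and ND1 at 99.8. The members with the widest span were COX2 (41.5 times between the highest and lowest ovary), ND1 (35.7 times) and ND2 (18.4 times), of which 62.8, 43.5 and 34.5% lie in nuclear copies. COX1, with 43.7% in such copies, had a span of 11.12 times, CYTB, with 0 bases in them, of 12.2 times, and ND5, with 0.714%, of 14.07 times. Among protein genes that are no members, ND4L, with 0 bases in copies, had a span of 18.4 times and ND6, with 14.2%, of 26.2 times. The part of the copies in these spans was not tested.

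The members did not move in fixed proportion. For each ovary the log2 ratio of a gene to the geometric mean of the 10 members was taken, which does not depend on the depth or on the total mitochondrial share. CYTB and ND5 kept the most even ratio, with ranges of 0.54 and 0.61 over the 6 ovaries. ND1 varied most, from -0.45 in ZD5 to -2.79 in ZD7, a range of 2.33, followed by COX2 with 1.84 (0.90 in ZD3 and -0.94 in ZD8), COX1 with 1.49 and ATP6 with 1.44. The groups overlapped on this scale for 9 of the 10 members. For ND5 they did not, at -0.46 ± 0.13 in SLS and -0.73 ± 0.20 in LLS (SD, n = 3 each). Its lowest SLS value, -0.597 in ZD12, was close to its highest LLS value, -0.605 in ZD5. The scale is defined within the members, so no share over all genes stands beside this 1 of 10. With 3 ovaries against 3 the smallest p of an exact two-sided permutation test is 0.1, and the lack of overlap is not a result for ND5. ATP6 was highest relative to the others in ZD8 (0.34) and lowest in ZD2 (-1.10).

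**Figure D4:**
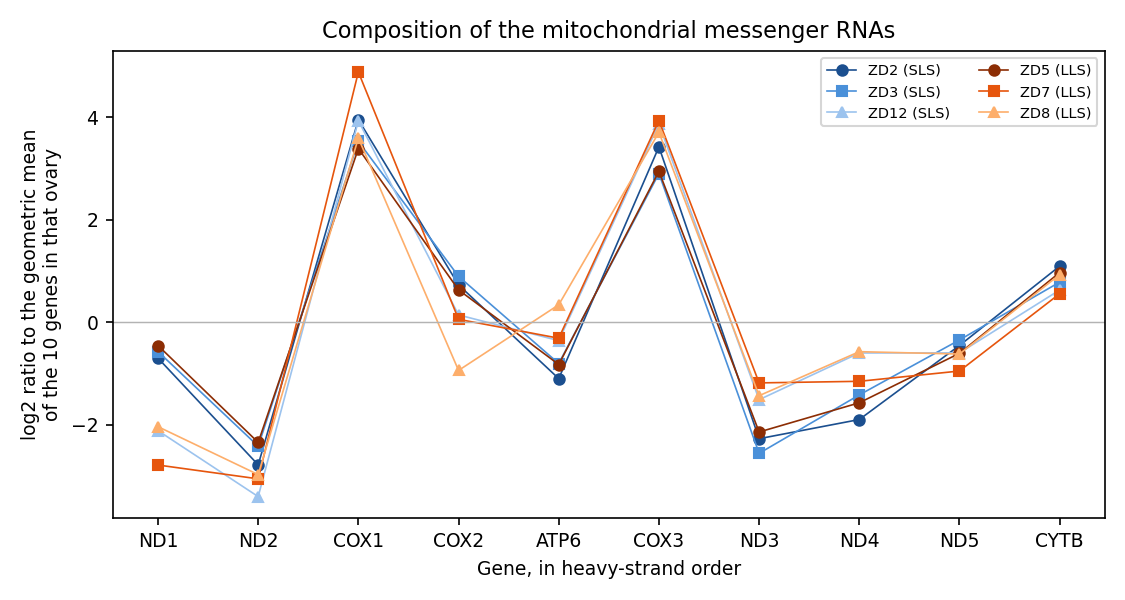
Log2 ratio of each gene's FPKM to the geometric mean of the 10 genes in the same ovary, in genome order, with 1 line per ovary (blue for SLS, orange to brown for LLS, 1 library each). ZD2, ZD3 and ZD5 run together at ND1, at -0.70 or higher, while ZD12, ZD7 and ZD8 lie at -2.04 or lower.

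By the ratio of ND1 to ND4, both of complex I, the ovaries fell into 2 clusters that crossed the litter size groups. The ratio of ND1 to ND4 was 2.29 in ZD2, 1.80 in ZD3 and 2.17 in ZD5, and 0.350 in ZD12, 0.322 in ZD7 and 0.363 in ZD8. The first 3 ovaries thus held more ND1 than ND4 per length, and the others less. Each cluster held ovaries of both groups, 2 SLS and 1 LLS in the first and 1 SLS and 2 LLS in the other. The ratio of ND5 to ND4 was 2.72, 2.10 and 1.95 in ZD2, ZD3 and ZD5 and 1.001, 1.15 and 0.968 in ZD12, ZD7 and ZD8. CYTB to COX3 had the same clusters, at 0.199, 0.230 and 0.254 in the first and 0.106, 0.0961 and 0.146 in the other. COX1 to COX3 did not, with 0.925 in ZD8, 1.04 in ZD12 and 1.93 in ZD7. Within complex I, the ratios of ND3 to ND4 and of ND6 to ND4 did not separate these clusters either. These pairs were chosen after their values were seen, and no test was made on them. Neither CYTB, COX3 nor ND4 has bases in nuclear copies of at least 95% identity, while ND1 has. The summed luteal markers were at 10304, 11475 and 12775 FPKM in ZD2, ZD3 and ZD5 and at 9845, 11457 and 172 FPKM in ZD12, ZD7 and ZD8, and their part in the clusters was not tested.

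**Figure D5:**
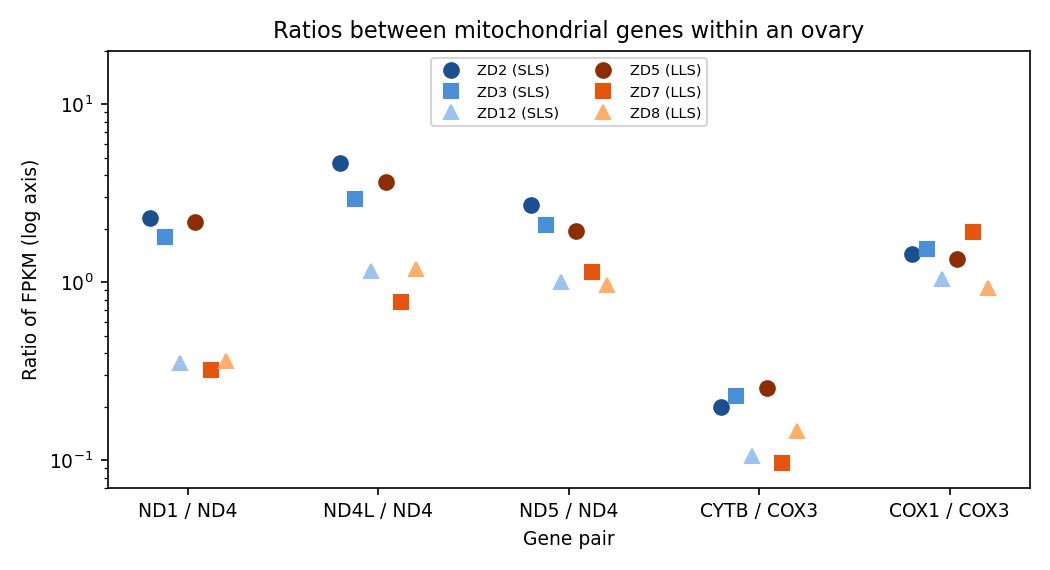
Ratio of the FPKM of 2 mitochondrial genes within an ovary (log axis) for 5 pairs, with 1 point per ovary (blue for SLS, orange to brown for LLS). For ND1 over ND4, ZD2, ZD3 and ZD5 lie at 1.80 or higher and ZD12, ZD7 and ZD8 at 0.363 or lower, and COX1 over COX3 shows no such clusters.

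The other genes of the mitochondrial genome were read beside the members. ND4L, which shares a messenger RNA with ND4 and encodes a small subunit of complex I, was at 373, 954 and 133 FPKM in ZD2, ZD3 and ZD12 and at 1100, 65.5 and 59.8 FPKM in ZD5, ZD7 and ZD8. Its ratio to ND4 was 4.66, 2.94 and 3.68 in ZD2, ZD3 and ZD5 and 1.16, 0.773 and 1.19 in ZD12, ZD7 and ZD8, the clusters seen for ND1. ND6, the complex I subunit encoded on the other strand, was at 106, 442 and 102 FPKM in SLS and at 475, 132 and 18.1 FPKM in LLS. ATP8, which shares a messenger RNA with ATP6, was at 11.2, 36.8 and 46.2 FPKM in ZD2, ZD3 and ZD5, from 139, 388 and 543 reads. It was listed at 0 in ZD12, ZD7 and ZD8, where a count of 0 allows up to 0.278, 0.242 and 0.456 FPKM (3 reads, counting error only) and where ATP6 held 4865, 6297 and 2073 reads. As shown by the paired sequences above, 96.1% of ATP8 lies in the chromosome 9 copy, and the part of this copy in the values at 0 was not tested. The transfer RNA for alanine, all of whose 68 bases lie in the same copy, was likewise above 0 in ZD2, ZD3 and ZD5 (66, 73 and 108 reads) and listed at 0 in the other 3, and the transfer RNA for tryptophan had 3, 23 and 5 reads in the first 3 ovaries and 0 in the others. The 16S ribosomal RNA was at 24.3, 59.5 and 15.8 FPKM in SLS and at 30.9, 4.59 and 3.81 FPKM in LLS. The 12S ribosomal RNA was at 2.72 to 6.48 FPKM with its lowest value in ZD3, where the members were high. Ribosomal RNA was removed before sequencing, so these levels are not those of the tissue. None of ND4L, ND6 and ATP8 was called (adjusted p = 0.999, limma), with log2 fold changes of -1.14, -0.67 and -1.10, or -0.42, 0.57 and -0.17 without ZD8.

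In each of the 4 complexes the nuclear mean varied less between ovaries than the mean of the members, and both were lowest in ZD8. For complex I, the mean FPKM per mitochondrial member was 117, 379 and 69.1 in ZD2, ZD3 and ZD12 and 381, 63.0 and 30.7 in ZD5, ZD7 and ZD8. The mean per nuclear subunit gene (37 genes) was 59.3, 46.2 and 56.9 FPKM in SLS and 50.7, 58.7 and 23.6 FPKM in LLS. The ratio of both thus ran from 1.07 in ZD7 to 8.21 in ZD3. ZD3 and ZD5, with the most mitochondrial RNA, had the lowest nuclear means after ZD8. For complex V the ratio of ATP6 to the mean of 17 nuclear genes ran from 1.03 in ZD2 to 4.46 in ZD5, and for complex IV, with 7 nuclear genes matched, from 13.4 in ZD8 to 76.8 in ZD3. For complex III, with 2 nuclear genes matched, it ran from 2.06 in ZD7 to 17.5 in ZD3.

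No nuclear gene of these complexes was called. For complex I, 35 of 37 log2 fold changes were negative, with a median of -0.40, and 2 genes, NDUFB1 and NDUFA6, did not overlap between the groups, 5.41% of the list beside 5.12% of all genes tested. NDUFB11 and NDUFA13, the most abundant, were at 134 and 130 FPKM on average. For complex V all 17 were negative, with a median of -0.47, and 4 did not overlap (23.5% beside 5.12%), ATP5B, ATP5J, ATP5C1 and ATP5L. ATP5B and ATP5A1, the most abundant, were at 364 and 320 FPKM on average. For complex IV, 6 of 7 were negative, with COX7A2 and COX5B at 142 and 140 FPKM, and for complex III, UQCR10 and UQCRB had -0.25 and 0.02. In ZD8, 33 of the 37 complex I genes and 16 of the 17 complex V genes were lower than in any other ovary, along with 8 of the 9 luteal markers. Without ZD8, an alternative chosen after the data were seen, the medians were -0.05 for complex I (23 of 37 lower) and -0.10 for complex V (12 of 17 lower), with 4 of 7 lower for complex IV and both genes of complex III higher (median 0.27, from -0.11), beside -0.10 over all genes tested. Of all genes tested, 47.4% were lower in LLS with all 6 ovaries and 66.0% without ZD8. Of 14 markers of mitochondrial mass, 12 were lowest in ZD8, with a sum of 472 FPKM beside 1014 to 1168 FPKM elsewhere, led by VDAC2, a channel of the outer membrane, and CS, citrate synthase. The sums did not overlap between the groups, with 1093 to 1168 FPKM in SLS and 1014 and 1084 FPKM in the other LLS ovaries. Of the 14, 13 were lower in LLS (10 without ZD8), 2 of them, HSPE1 and TIMM44, without overlap (14.3% beside 5.12% of all genes tested), and 0 were called.

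The genes that copy, process and translate mitochondrial RNA were also read from lists. Of 15 tested genes for transcription and replication, 0 were called, with a median of 0.08 (10 higher and 5 lower), or -0.02 without ZD8 (6 higher and 9 lower). POLG, the polymerase of mitochondrial DNA, had a mean of 24.0 FPKM. TFAM, which packs mitochondrial DNA and starts its transcription, was at 6.17, 22.4 and 12.5 FPKM in ZD2, ZD3 and ZD12 and at 18.1, 9.37 and 6.95 FPKM in ZD5, ZD7 and ZD8. Its highest ovaries were ZD3 and ZD5, as for the members, and its log2 fold change was -0.18 (adjusted p = 0.999, limma), or 0.10 without ZD8. Of 27 genes for processing and stability of mitochondrial RNA, 0 were called, with 9 higher and 18 lower in LLS and a median of -0.07. REXO2, a nuclease that clears short RNA fragments, was the most abundant of these at 179 FPKM and was lower in each LLS than in each SLS ovary (log2 fold change -0.69, adjusted p = 0.999, limma, or -0.31 without ZD8). FASTKD5, a protein of mitochondrial RNA granules, was higher in each LLS ovary (0.47, or 0.46 without ZD8), and these 2 genes are 7.41% of the list beside 5.12% of all genes tested. HSD17B10, a subunit of the enzyme that cuts transfer RNAs from precursors, was at 30.8 FPKM. Of 80 mitochondrial ribosome genes 64 were lower (80.0%, beside 47.4% of all genes tested), or 55 without ZD8 (68.8% beside 66.0%), and 5 of the 80 had no overlap (6.25% beside 5.12% of all genes tested), and 0 were called, with MRPL37 and MRPL28 at 105 and 60.3 FPKM. Of 12 translation factors 0 were called, with TUFM, the elongation factor, and OXA1L, which inserts the new proteins into the membrane, at 51.9 and 46.8 FPKM. Of 7 tested regulators of mitochondrial biogenesis, led by PPRC1 and YY1, 0 were called, with a median of 0.09 (5 higher and 2 lower), or -0.12 without ZD8 (2 higher and 5 lower).

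The 5 genes most like the members over the 6 ovaries, by Pearson's r with the members' mean log2(FPKM + 1) among the 12250 other genes tested, were SGMS1 (0.989), MYCT1 (0.988), LOC106509733 (0.977), NAP1L5 (0.975) and TOB1 (0.975). SGMS1, a sphingomyelin synthase, was at 21.1, 33.5 and 16.4 FPKM in ZD2, ZD3 and ZD12 and at 37.1, 19.5 and 13.1 FPKM in ZD5, ZD7 and ZD8. MYCT1, which is found in endothelial cells, was at 8.58, 15.4 and 6.27 FPKM in SLS and at 12.9, 7.01 and 3.57 FPKM in LLS. Both thus had ZD3 and ZD5 as their highest ovaries and ZD8 as their lowest, over spans of about 3 to 4 times. These are correlations over 6 points, picked as the highest among many genes, and are given as a description. The members' own r with their mean, of which each is a part, ran from 0.922 (COX1) to 0.993 (ND5).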

How the data were processed

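RNA depleted of ribosomal RNA was sequenced from 6 left ovaries, each giving 1 library. The authors used NGSQCToolkit for trimming and HISAT2 for alignment to Sscrofa11.1, and deposited FPKM, reads divided by transcript length and library total. The program that counted reads on genes and its strand setting are not given in the sources used here. Whole reads were recovered from FPKM, the longest annotated transcript and 1 total per library, within 0.001 reads, for 23487 of 23556 genes above 0 FPKM (99.7%).

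Groups were compared by limma 3.58.1 in R 4.3.3 with a variance trend on log2(FPKM + 1), two-sided, for genes with at least 1 FPKM in at least 3 libraries. P-values were adjusted by Benjamini-Hochberg over the 12260 genes tested, and a call needed a log2 fold change over 1 in size with an adjusted p below 0.05. A fold change on this scale understates the change of weakly expressed genes. The code was tested on simulated data. The exact permutation test (scipy 1.17.1) cannot go below p = 0.1 with 3 ovaries against 3. Nuclear copies of the mitochondrial genome were searched with BLAST+ 2.17.0 in the assembly's nuclear sequences. Alternatives covered the pseudocount, the filter, the scaling of FPKM, the variance trend, limma's array weights, limma's voom on the recovered reads and leaving out each ovary in turn.

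All 10 members were named, with each other listed gene of the mitochondrial genome, the 5 genes most correlated with the members' mean, every gene called with all 6 ovaries and the 2 most abundant genes of each mitochondrial list, the most abundant gene of each marker list, and STAR and CYP11A1 for ovary ZD8. The members and lists were chosen with earlier results of these data known. The deposited table of small RNAs was not used here.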

Additional observations from a re-analysis of the deposited data

How the results depend on the processing

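The count of members called was 0 in every fit, that is in the 10 other settings, at an unadjusted p under 0.05 with all 6 ovaries, and in the 6 fits that each left out 1 ovary. The sign of the difference was less stable than the count. With limma's array weights, which weigh each library by its fit, all 10 log2 fold changes of LLS against SLS turned positive, with 0.79 for COX1, 0.41 for COX2, 0.43 for COX3, 0.68 for ATP6, 0.51 for CYTB, 0.34 for ND1, 0.87 for ND2, 0.82 for ND3, 0.38 for ND4 and 0.29 for ND5 (lowest adjusted p = 0.542, limma). Quantile normalization turned ATP6 to 0.0301. When single ovaries were left out, COX1 ran from -1.15 to 0.54, COX2 from -2.59 to -0.04, COX3 from -1.16 to 0.25 and ATP6 from -0.81 to 0.49. CYTB ran from -1.67 to 0.13, ND1 from -2.82 to -0.27, ND2 from -1.67 to 0.37, ND3 from -0.76 to 0.65, ND4 from -1.13 to 0.18 and ND5 from -1.89 to -0.11. The cause of these changes was not tested. In the other settings, voom on the recovered reads included, all 10 remained negative. Over all genes tested, 13 were called with array weights and 21 without ZD8, against 0 with all 6 ovaries and in the other settings.

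The share of the members in the summed FPKM, 3.37% in SLS and 2.94% in LLS, ran from 1.99% (without ZD3) to 4.31% (without ZD12) and from 1.54% (without ZD5) to 4.12% (without ZD8, above the SLS mean). No paired analysis was possible because the ovaries carry no shared numbers. Without ZD8, the differences of ND6 and TFAM also turned positive (0.57 and 0.10), and this setting was added for them after the data were seen. At least 308 reads lay behind each member's value.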
